A study of Homo sapiens with 24 samples.

Results

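The epidermal growth factor receptor (EGFR) family is described here through 9 genes of the 26475 measured, taken by name as members of the family. The receptors are EGFR, ERBB2 and ERBB3. The ligands are TGFA (transforming growth factor alpha), AREG (amphiregulin), EREG (epiregulin), HBEGF (heparin-binding EGF-like growth factor) and BTC (betacellulin). The last is ERRFI1 (also MIG6), an inhibitor that binds the EGFR kinase. All 9 had a value, which could be 0, in each of the 24 RNA-seq libraries. The study examined what the lineage transcription factor PAX8 does in clear cell renal cell carcinoma (ccRCC), using the lines 786-M1A and OS-LM1, which are metastatic derivatives of the ccRCC lines 786-O and OS-RC2. Both carry VHL mutations and were grown in RPMI with 10% FBS. Each line was sequenced with 3 constructs, 4 replicates each: shPAX8-1 and shPAX8-2, hairpins (shRNAs) against PAX8, and sgNTC18, labelled as a guide-type construct and used here as the control. Neither how long the hairpins acted nor whether replicates were separate cultures is given in the sources used here, so p-values measure the spread between these libraries, which may be technical.

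EGFR family receptors sit at the plasma membrane and pair with each other when a ligand binds. Pairing switches on their kinase domains, which signal through adaptors such as GRB2, SHC1 and GAB1 to the RAS and ERK cascade. ERBB2 has no known ligand and is the preferred partner of the others, while ERBB3 has little kinase activity of its own. The ligands are made as membrane-bound precursors that proteases such as ADAM17 and ADAM10 release. VHL loss stabilizes hypoxia-inducible factor 2α (HIF2A), and TGFA is a textbook gene raised by it in kidney cancer cells.

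The hairpins are shown first because the knockdown groups are defined by them. Their sequences as the study lists them are:
shPAX8-1: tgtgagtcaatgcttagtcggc
shPAX8-2: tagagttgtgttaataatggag

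For 3 ligand genes, the 250 bases before the RefSeq transcription start (GRCh38.p14, read 5′ to 3′ on the gene's strand) are shown: TGFA because it was the most abundant ligand in the controls of both lines, and the neighbours EREG and AREG because they were near or at 0 counts in OS-LM1. They lie at chr2:70553827-70554076 (minus strand) for TGFA, chr4:74364895-74365144 (plus strand) for EREG and chr4:74444886-74445135 (plus strand) for AREG. Capitals mark matches to ACGTG or GCGTG (the hypoxia response cores, either strand), TGACGTCA (the cyclic AMP response element) or TATAAA (the TATA element, gene strand only). No marked matches overlap.
TGFA: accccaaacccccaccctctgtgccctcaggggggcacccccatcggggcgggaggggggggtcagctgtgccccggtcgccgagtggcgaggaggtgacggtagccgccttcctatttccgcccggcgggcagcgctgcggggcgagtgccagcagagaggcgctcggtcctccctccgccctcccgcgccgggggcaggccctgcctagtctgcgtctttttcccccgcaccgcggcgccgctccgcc
EREG: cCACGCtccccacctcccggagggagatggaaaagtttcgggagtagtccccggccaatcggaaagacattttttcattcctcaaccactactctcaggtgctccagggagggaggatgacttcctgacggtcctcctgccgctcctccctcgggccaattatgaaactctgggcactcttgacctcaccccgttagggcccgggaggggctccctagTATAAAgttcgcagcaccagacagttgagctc
AREG: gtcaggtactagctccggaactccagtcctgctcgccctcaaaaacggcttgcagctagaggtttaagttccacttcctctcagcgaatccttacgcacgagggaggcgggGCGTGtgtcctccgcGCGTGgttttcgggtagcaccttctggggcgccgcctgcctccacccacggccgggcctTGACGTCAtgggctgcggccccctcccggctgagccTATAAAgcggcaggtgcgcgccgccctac

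In AREG, GCGTG occurred 2 times, TGACGTCA 1 time, beginning 65 bases before the start, and TATAAA 1 time, beginning 29 bases before the start. EREG held GCGTG 1 time, at its far end, and TATAAA 1 time, beginning 32 bases before the start. None of these letters occurred in the TGFA window, nor in those of EGFR, ERBB2, HBEGF and ERRFI1, while the BTC window held GCGTG 1 time. Among 35116 RefSeq windows of this length, 18.5% held ACGTG, 32.2% GCGTG, 1.65% TGACGTCA and 6.80% TATAAA. The matches describe the letters only.

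EREG, AREG and BTC are neighbours on chromosome 4, at 74365145–74388749, 74445136–74455005 and 74744759–74794523, with EPGN, another ligand gene, before them at 74308470–74316789. EREG and AREG are 56.4 kb apart. TGFA is at 70447284–70553826 on chromosome 2, EGFR at 55019017–55211628 on chromosome 7 and HBEGF at 140332843–140346603 on chromosome 5. ERBB2 is at 39688094–39728658 on chromosome 17, ERBB3 at 56080108–56103505 on chromosome 12 and ERRFI1 at 8011727–8026309 on chromosome 1. Positions are whole gene spans, exons and introns together, in GRCh38.p14 as RefSeq gives them.

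The libraries held 11634419 to 52059375 expected counts, with a median of 20511914.5. PAX8 itself was lower in every hairpin library than in any control library of its line. In 786-M1A it was at 292–393 CPM (counts divided by library size and scaled alike in all libraries) with sgNTC18, 14.8–22.9 with shPAX8-1 and 40.0–45.5 with shPAX8-2, and in OS-LM1 at 245–279, 59.8–89.2 and 63.8–97.0 CPM. The fall was therefore deepest in 786-M1A with shPAX8-1, while the hairpins left like PAX8 levels in OS-LM1 (log2 difference -0.01 ± 0.14 SE). Of 11 renal tubule and ccRCC markers, 8 to 10 were over 1 TPM (transcripts, weighed by length and scaled to a constant sum) in each group. All 4 endothelial markers were under 1 TPM, with a summed TPM of 0.08–0.38. The leukocyte markers PTPRC and CD3E were under 1 TPM, and the summed TPM of the leukocyte list, 74.9–368, was nearly all CD68. The 5 fibroblast and smooth muscle markers summed to 90.0–394 TPM, nearly all ACTA2, COL1A1 and PDGFRB, with DCN under 1 TPM. Both sums differed between groups, and their part in the results was not tested. Controls and hairpins differ in construct type, and the ribosomal transcript RNA18S5 took 4.52–8.16% of counts in sgNTC18 and 1.18–6.53% in shPAX8 libraries. In each line both hairpins are compared with the same 4 control libraries. The effects of PAX8 depletion and of other differences between these library sets cannot be told apart in a comparison with sgNTC18. Hairpin against hairpin, and line against line, do not use that contrast.

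Per transcript length, ligand and inhibitor transcripts outnumbered receptor transcripts in the control cells. In 786-M1A sgNTC18 libraries TGFA was at 414 ± 46.8 TPM (SD, n = 4), ERRFI1 at 385 ± 31.0 and EGFR at 79.6 ± 5.003. EREG followed at 70.1 ± 10.8 TPM, ERBB2 at 16.5 ± 1.86, HBEGF at 7.26 ± 0.229 and AREG at 6.82 ± 0.709. TGFA and ERRFI1 overlapped in range, as did EGFR and EREG, and HBEGF and AREG. ERBB3, at 0.445 ± 0.311 TPM, and BTC, at 0.328 ± 0.1502 TPM, were near the limit of detection. The OS-LM1 sgNTC18 order was different for the ligands: TGFA was at 185 ± 13.4 TPM and ERRFI1 at 186 ± 2.89, followed by EGFR at 93.5 ± 3.71, HBEGF at 29.3 ± 5.35 and ERBB2 at 20.2 ± 1.60. EREG stood at 0.113 ± 0.0126 TPM, below ERBB3 (0.633 ± 0.112) and BTC (0.333 ± 0.231), and no AREG count was made.

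**Figure D1:**
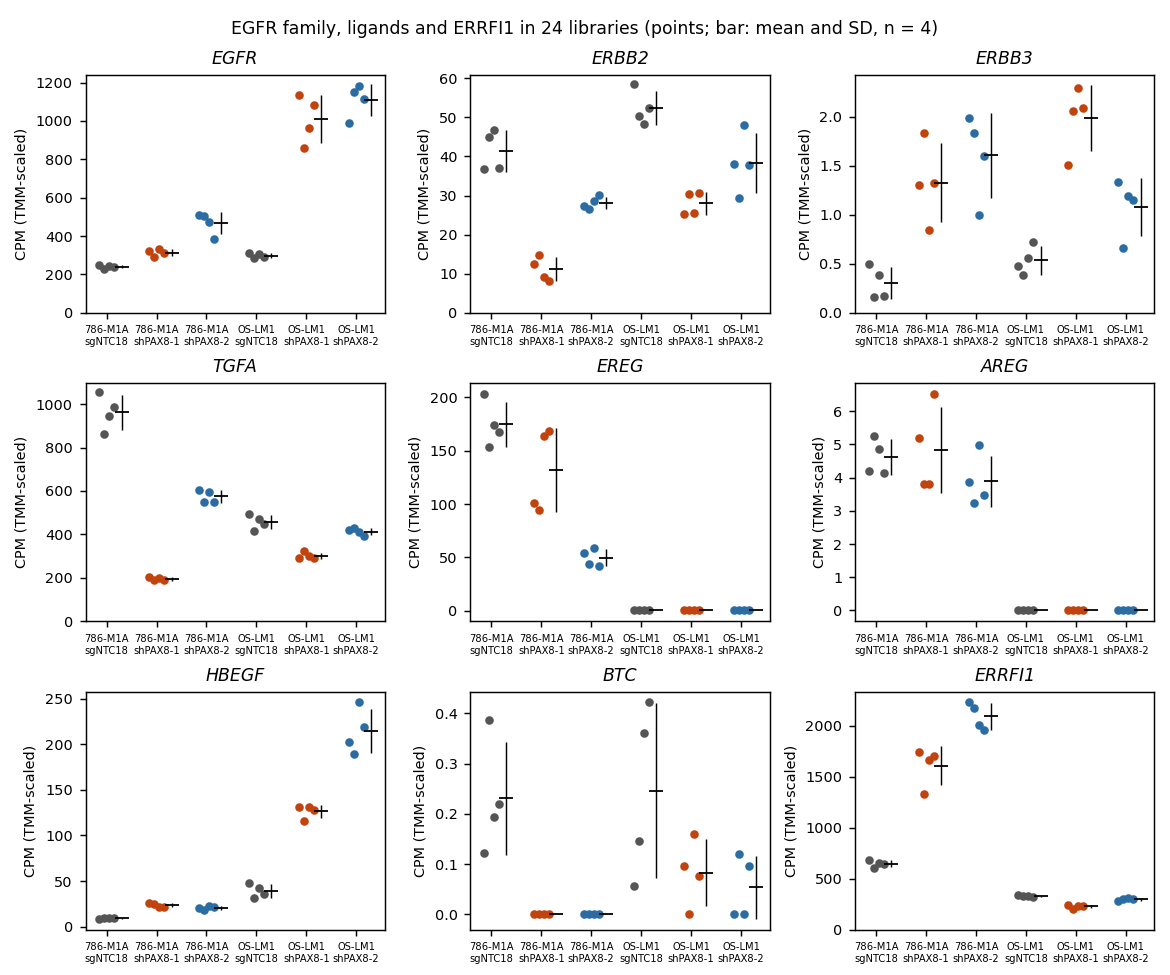
CPM (TMM-scaled library size) of each of the 9 genes in every library, by line and construct, with the group mean and SD (n = 4) as a bar; each panel has its own axis. EGFR stands at 856–1184 CPM in the 8 OS-LM1 hairpin libraries against 285–311 in the OS-LM1 controls, and TGFA falls from 863–1053 CPM to 189–203 CPM with shPAX8-1 in 786-M1A.

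EGFR was higher in hairpin than in control libraries of both lines, and the difference was larger in OS-LM1. In OS-LM1 the 4 sgNTC18 libraries had 311, 285, 307 and 290 CPM. The shPAX8-1 libraries had 1135, 856, 961 and 1085 CPM, and the shPAX8-2 libraries 990, 1149, 1184 and 1112 CPM. No hairpin library came near the controls, and the hairpins overlapped each other. EGFR rose by 1.72 ± 0.10 log2 units (SE) with shPAX8-1 and by 1.90 ± 0.09 with shPAX8-2 (adjusted p = 7e-12 and 3.7e-11, edgeR quasi-likelihood test with Benjamini-Hochberg adjustment over all genes tested, as throughout). In 786-M1A the controls had 249, 229, 245 and 237 CPM. The shPAX8-1 libraries had 321, 290, 330 and 312 CPM, and the shPAX8-2 libraries 511, 507, 474 and 383 CPM. All 3 sets were apart from each other, with shPAX8-2 highest. The rise was 0.41 ± 0.09 (adjusted p = 0.0012) and 0.99 ± 0.10 (adjusted p = 1.3e-07). The depletion effect, here the difference from sgNTC18 averaged over the hairpins, was 1.15 ± 0.12 log2 units larger in OS-LM1 (adjusted p = 4.2e-09). PAX8 itself fell less in OS-LM1, with an interaction of 1.87 ± 0.17 log2 units (adjusted p = 7.5e-10). The part of this unlike knockdown in the line differences of the members was not tested.

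ERBB2, the partner receptor, went the other way: it was lower with both hairpins in both lines. In 786-M1A the controls had 36.8, 45.0, 46.9 and 37.0 CPM, shPAX8-1 libraries 12.6, 14.9, 9.21 and 8.06, and shPAX8-2 libraries 27.3, 26.5, 28.6 and 30.1. The lowest control lay above every hairpin library, and shPAX8-1 lay below shPAX8-2. The log2 fold changes were -1.86 ± 0.20 (adjusted p = 1e-05) and -0.53 ± 0.11 (adjusted p = 0.00036). In OS-LM1 the controls had 58.4, 50.4, 48.3 and 52.4 CPM, shPAX8-1 libraries 25.3, 30.5, 25.5 and 30.5, and shPAX8-2 libraries 38.0, 29.4, 48.0 and 37.7. Replicate 3 of shPAX8-2, also the deepest library, all but reached the lowest control. ERBB2 fell by 0.94 ± 0.10 log2 units (adjusted p = 4.6e-08) with shPAX8-1 and by 0.44 ± 0.12 (adjusted p = 0.0043) with shPAX8-2. With each library's trend against gene GC content removed, the shPAX8-2 difference in OS-LM1 was -0.11 (adjusted p = 0.18).

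ERBB3 was scarce throughout, with 3 to 57 counts a library. In 786-M1A it had 0.166–0.493 CPM in controls, 0.843–1.84 with shPAX8-1 and 0.995–1.99 with shPAX8-2, and in OS-LM1 0.381–0.723, 1.51–2.29 and 0.657–1.33. The hairpin libraries were all above the controls of their line, except that shPAX8-2 overlapped them in OS-LM1. The rises were 2.08 ± 0.39 (adjusted p = 0.00067) and 2.37 ± 0.37 (adjusted p = 3.1e-05) in 786-M1A, and 1.85 ± 0.28 (adjusted p = 8e-06) and 1.03 ± 0.32 (adjusted p = 0.0089) in OS-LM1. In TPM, which takes transcript length into account, the OS-LM1 log2 ratios of group means were smaller, 1.10 with shPAX8-1 and 0.54 with shPAX8-2. The gene's counts cover 2 transcripts, with a gene length of 1129 bases in replicate 1 of the 786-M1A controls. That is short beside EGFR (5595 bases) and ERBB2 (4609 bases) in the same library. Which transcript the counts came from was not examined, so they need not be those of the full receptor. ERBB4, the family's other receptor and not among the 9, marked the lines: it had no count in 4 of 4 786-M1A controls and 5.27–6.51 CPM in OS-LM1 controls, rising to 20.3–26.3 CPM with shPAX8-1 and 17.4–23.6 with shPAX8-2.

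TGFA, the most abundant EGFR ligand transcript in the controls of both lines, was lower with both hairpins in 786-M1A, most with shPAX8-1, and with shPAX8-1 in OS-LM1. The 786-M1A controls had 1053, 863, 943 and 985 CPM. The shPAX8-1 libraries had 203, 189, 200 and 189 CPM, and the shPAX8-2 libraries 606, 550, 595 and 550 CPM. The 3 sets did not overlap, and the values within each were close. TGFA fell by 2.28 ± 0.10 log2 units (4.85-fold, adjusted p = 2.3e-08) with shPAX8-1 and by 0.71 ± 0.08 (1.64-fold, adjusted p = 1.4e-06) with shPAX8-2. In OS-LM1 the controls had 495, 415, 472 and 447 CPM, shPAX8-1 libraries 290, 322, 302 and 293, and shPAX8-2 libraries 419, 429, 412 and 391. The shPAX8-1 libraries were all lower than the controls, with a log2 fold change of -0.63 ± 0.08 (adjusted p = 1.2e-06), whereas the shPAX8-2 libraries overlapped them, at -0.14 ± 0.09 (adjusted p = 0.16). That last value was -0.30 with an adjusted p of 0.00092 once the GC trend was removed. The depletion effect differed between the lines by 1.15 ± 0.09 log2 units (adjusted p = 1.1e-10). The transcript of EPAS1, which encodes HIF2A, rose by 0.64 ± 0.11 and 1.42 ± 0.11 in 786-M1A (adjusted p = 0.00038 and 1.6e-08) and by 0.50 ± 0.09 and 0.80 ± 0.10 in OS-LM1 (adjusted p = 3.1e-05 and 2e-06). VEGFA, another gene that HIF is known to induce, rose in 786-M1A, by 0.37 ± 0.14 and 1.02 ± 0.11 (adjusted p = 0.035 and 6.6e-07), and fell in OS-LM1, by 0.85 ± 0.08 and 0.28 ± 0.10 (adjusted p = 1.9e-08 and 0.026). Its depletion effect was 1.22 ± 0.16 log2 units lower in OS-LM1 (interaction -1.22, adjusted p = 2.4e-07). HIF-induced genes were not counted as a set. CCND1, which the paper places under HIF2A and PAX8 control, had group means of 622, 385 and 814 CPM in 786-M1A (sgNTC18, shPAX8-1, shPAX8-2). In OS-LM1 they were 549, 283 and 421 CPM. The ccRCC markers CA9 and NDUFA4L2 rose in OS-LM1, from 6.40 CPM to 42.2 and 29.5 and from 0.564 CPM to 23.7 and 26.5. These libraries measure neither HIF2A protein nor its binding to DNA, and the part of HIF2A in the TGFA differences was not tested.

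HBEGF, whose precursor also serves as the diphtheria toxin receptor, was higher with both hairpins in both lines. In OS-LM1 the controls had 47.8, 31.1, 42.3 and 35.9 CPM, shPAX8-1 libraries 131, 116, 131 and 127, and shPAX8-2 libraries 203, 189, 246 and 219. The 3 sets were apart, with shPAX8-2 highest. The rises were 1.65 ± 0.11 (3.14-fold, adjusted p = 1.4e-10) and 2.45 ± 0.13 (5.48-fold, adjusted p = 1e-10). In 786-M1A the controls had 8.503, 9.73, 9.22 and 9.27 CPM, shPAX8-1 libraries 26.2, 25.2, 21.5 and 21.6, and shPAX8-2 libraries 20.9, 18.1, 22.5 and 21.3. The hairpins overlapped each other there and lay above every control, by 1.39 ± 0.13 (adjusted p = 2.9e-06) and 1.20 ± 0.11 (adjusted p = 1.2e-07). The rise over both hairpins was 0.80 ± 0.14 log2 units larger in OS-LM1 (adjusted p = 3.1e-05).

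EREG and AREG, the neighbouring ligands of chromosome 4, were 786-M1A transcripts. EREG had 203, 154, 174 and 168 CPM in the 786-M1A controls, 101, 94.6, 164 and 169 with shPAX8-1, and 53.8, 43.7, 59.1 and 42.3 with shPAX8-2. All shPAX8-2 libraries were below all others, and the shPAX8-1 libraries fell into a lower pair (replicates 1 and 2) and a pair within the control range (replicates 3 and 4). The same pairs appeared over all genes. Chi-square per gene, a measure of spread beyond counting noise, was 14.1 and 3.73 within the pairs and 44.7 to 77.4 across them. PAX8 had 22.9 and 21.9 CPM in the first pair and 15.2 and 14.8 in the second. What set the pairs apart was not tested. EREG fell by 1.79 ± 0.12 log2 units with shPAX8-2 (adjusted p = 2.4e-09), and with shPAX8-1 it was at -0.39 ± 0.19 (adjusted p = 0.091). With only replicates 1 and 2 of shPAX8-1 that value was -0.81 (adjusted p = 1.5e-05), and with the GC trend removed -1.01 (adjusted p = 1e-08). It also passed with all 24 libraries in one fit (-0.41, adjusted p = 0.041), without replicate 3 of shPAX8-1 (-0.50, adjusted p = 0.037) and without replicate 4 (-0.52, adjusted p = 0.025). In OS-LM1, EREG had only 1 to 12 counts a library and did not pass the filter for the within-line comparisons.

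AREG was low but present in 786-M1A and was not counted in OS-LM1. The 786-M1A controls had 4.19, 5.25, 4.85 and 4.13 CPM, shPAX8-1 libraries 5.18, 3.82, 3.79 and 6.52, and shPAX8-2 libraries 3.87, 3.24, 4.97 and 3.47. The 3 sets overlapped, with log2 fold changes of 0.09 ± 0.20 (adjusted p = 0.71) and -0.23 ± 0.18 (adjusted p = 0.26). All 12 OS-LM1 libraries held 0 AREG counts. Against a floor of 3 counts summed over the 4 libraries of a group, AREG was at least 213-fold higher in the 786-M1A controls, 146-fold with shPAX8-1 and 143-fold with shPAX8-2. BTC had 3, 7, 6 and 5 counts in the 786-M1A controls and 0 in the 8 hairpin libraries of that line. Over the same floor the control mean was at least 5.78-fold higher than shPAX8-1 and 4.86-fold higher than shPAX8-2. These bounds take no account of counting error in the 21 control counts. In OS-LM1, BTC had 2–14 counts in controls, 0–4 with shPAX8-1 and 0–3 with shPAX8-2, and passed the filter in no comparison.

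Summed in TPM, the 5 ligands were lower in the hairpin libraries of 786-M1A and not in those of OS-LM1, where the HBEGF share was larger and the TGFA share smaller. The 786-M1A sum was 498 ± 56.5 TPM in controls, 150 ± 11.5 with shPAX8-1 and 266 ± 21.5 with shPAX8-2. In OS-LM1 it was 215 ± 18.6, 221 ± 19.9 and 320 ± 21.2 TPM. TGFA made up 86.2% ± 1.29 of the OS-LM1 ligand transcripts in controls, 56.4% ± 2.48 with shPAX8-1 and 51.2% ± 3.40 with shPAX8-2, and HBEGF 13.5% ± 1.33, 43.5% ± 2.45 and 48.8% ± 3.42. In 786-M1A with shPAX8-1, TGFA's share was 51.9% ± 4.92 and EREG's 32.0% ± 6.96, against 83.0% ± 0.625 and 14.03% ± 0.684 in the controls. With shPAX8-2 TGFA kept 85.5% ± 1.10, since TGFA and EREG were both lower. The ratio of TGFA to EGFR transcripts, both in TPM, was 5.19 ± 0.306 in 786-M1A controls and 0.809 ± 0.0295 and 1.61 ± 0.193 with shPAX8-1 and shPAX8-2. In OS-LM1 it was 1.98 ± 0.0712, 0.395 ± 0.0704 and 0.486 ± 0.0448.

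**Figure D2:**
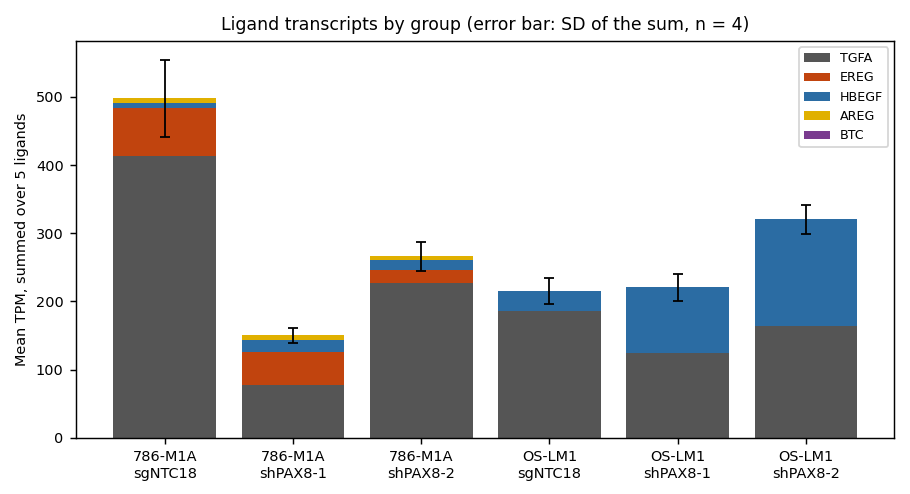
Mean TPM of TGFA, EREG, HBEGF, AREG and BTC stacked by group, with the SD of the summed TPM over 4 libraries as the error bar. The sum drops from 498 to 150 TPM in 786-M1A with shPAX8-1, and HBEGF supplies 48.8% of the 320 TPM in OS-LM1 with shPAX8-2.

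ERRFI1, the inhibitor that ERK signalling and stress are known to induce, moved in opposite directions in the lines. In 786-M1A the controls had 686, 609, 651 and 644 CPM, shPAX8-1 libraries 1745, 1333, 1659 and 1701, and shPAX8-2 libraries 2232, 2177, 2007 and 1955. Every hairpin library was above every control, and the rises were 1.33 ± 0.10 (2.52-fold, adjusted p = 9.2e-07) and 1.72 ± 0.08 (3.30-fold, adjusted p = 5e-11). In OS-LM1 the controls had 339, 329, 330 and 326 CPM, shPAX8-1 libraries 242, 208, 232 and 234, and shPAX8-2 libraries 283, 298, 316 and 303. All hairpin libraries were below the controls, but only the shPAX8-1 fall passed the test, at -0.57 ± 0.08 (adjusted p = 2.5e-06) against -0.14 ± 0.08 (adjusted p = 0.13) for shPAX8-2. With the GC trend removed, the latter was -0.33 (adjusted p = 0.00037). The depletion effect was 1.84 ± 0.10 log2 units lower in OS-LM1 than in 786-M1A (adjusted p = 4.4e-14). Per EGFR transcript, ERRFI1 went from 4.84 ± 0.0992 to 9.19 ± 0.719 and 8.08 ± 0.726 in 786-M1A, and from 1.99 ± 0.0633 to 0.410 ± 0.0290 and 0.487 ± 0.0202 in OS-LM1.

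**Figure D3:**
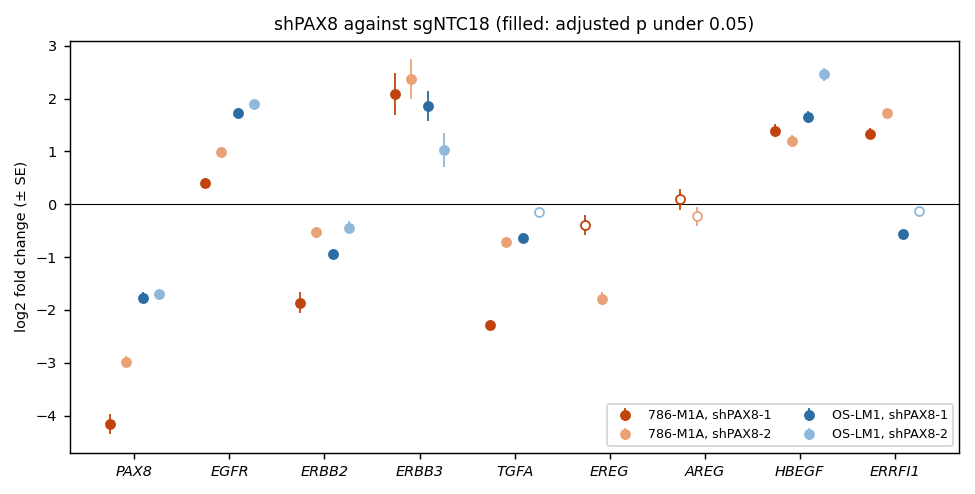
Log2 fold change (± SE) of PAX8 and of the members tested, hairpin against sgNTC18, for each line and hairpin; filled points have an adjusted p under 0.05. ERBB2 lies below 0 and HBEGF, EGFR and ERBB3 above 0 in all 4 comparisons, while ERRFI1 is above 0 in 786-M1A and below 0 in OS-LM1.

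These counts stand against a background in which most genes differed from sgNTC18. In 786-M1A, 8 of the 9 members passed the low-count filter. With shPAX8-1, 4 were higher and 2 lower, where 34.9% of all genes tested were higher and 34.1% lower. With shPAX8-2, 4 were higher and 3 lower, against 34.7% and 34.5% of all genes. In OS-LM1, 6 members passed the filter. With shPAX8-1, 3 were higher and 3 lower (35.8% and 37.5% of all genes), and with shPAX8-2, 3 were higher and 1 lower (34.2% and 34.7%). The members' shares lie near that background, so their number is not a result about the family. The sizes of the members' changes and their differences between lines and hairpins are described gene by gene. They were not ranked against those of all genes. In an exact two-sided permutation test of log2 CPM over the 70 splits of 4 against 4, 41 of 59 member-by-comparison tests gave the smallest p this design allows, 0.0286, which adjusted over the 59 tests is 0.0411. No such count was made over all genes, and given the shares of genes called above it is not a result about the family.

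The hairpins were then set against each other, which uses no control library. The log2 differences between them tended to be lower in genes of higher GC content (Spearman r = -0.56 in 786-M1A and -0.21 in OS-LM1). In the comparisons with sgNTC18 that correlation ran from -0.38 to -0.10. In 786-M1A, where PAX8 was 2.27-fold lower with shPAX8-1 (log2 difference -1.18 ± 0.16, adjusted p = 0.00055), 4 of 8 members were lower and 1 higher with shPAX8-1, against 19.8% and 21.4% of all genes. TGFA was 2.95-fold lower (-1.56 ± 0.09, adjusted p = 7.6e-06) and ERBB2 2.51-fold lower (-1.33 ± 0.19, adjusted p = 0.00055), and EREG was 2.65-fold higher (1.41 ± 0.21, adjusted p = 0.00071). EGFR, at -0.58 ± 0.11 (adjusted p = 0.0031), and ERRFI1, at -0.38 ± 0.11 (adjusted p = 0.017), were lower too. HBEGF (0.19 ± 0.13, adjusted p = 0.25), AREG (0.32 ± 0.23, adjusted p = 0.27) and ERBB3 (-0.28 ± 0.30, adjusted p = 0.47) did not pass the test. The ERRFI1 difference missed the threshold without shPAX8-2 replicate 1 (-0.35, adjusted p = 0.056) or replicate 2 (-0.36, adjusted p = 0.054). HBEGF passed with the GC trend removed (0.29, adjusted p = 0.026).

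In OS-LM1, where the hairpins left like PAX8 levels, 4 of 6 members tested were lower and 1 higher with shPAX8-1, against 12.5% and 13.0% of all genes. HBEGF was 1.68-fold lower (-0.75 ± 0.10, adjusted p = 5.9e-05), TGFA 1.36-fold lower (-0.44 ± 0.09, adjusted p = 0.0016) and ERRFI1 1.30-fold lower (-0.38 ± 0.09, adjusted p = 0.0042). EGFR did not pass (-0.13 ± 0.11, adjusted p = 0.42). The ERBB2 difference, -0.45 ± 0.14 (adjusted p = 0.027), missed the threshold without shPAX8-1 replicate 1 or 3 or without shPAX8-2 replicate 1, 3 or 4, with adjusted p from 0.053 to 0.084. It was smallest, at -0.32, without the deepest library, shPAX8-2 replicate 3. The ERBB3 difference, 0.87 ± 0.26 (adjusted p = 0.021), missed it without shPAX8-1 replicate 3 (0.80, adjusted p = 0.061) or replicate 4 (0.85, adjusted p = 0.057).

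**Figure D4:**
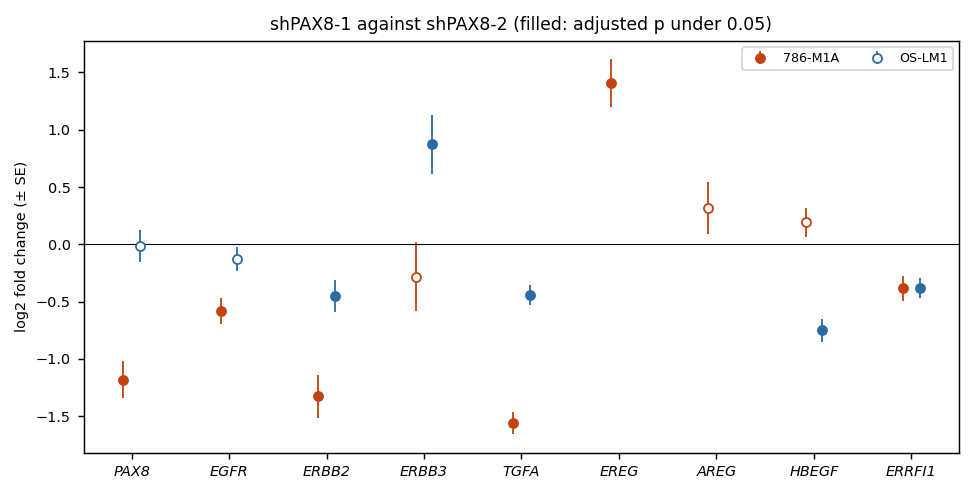
Log2 fold change (± SE) of shPAX8-1 against shPAX8-2 for PAX8 and the members tested, in 786-M1A and OS-LM1; filled points have an adjusted p under 0.05. TGFA is below 0 in both lines (-1.56 and -0.44), EREG is above 0 in 786-M1A (1.41), and the PAX8 difference seen in 786-M1A (-1.18) is near 0 in OS-LM1.

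Whether the hairpins differed by unlike amounts in the lines was tested as an interaction over the 16 shPAX8 libraries. TGFA (1.11 ± 0.11, adjusted p = 3.6e-06), ERBB2 (0.87 ± 0.24, adjusted p = 0.015), EGFR (0.45 ± 0.15, adjusted p = 0.044) and ERBB3 (1.14 ± 0.39, adjusted p = 0.042) had a higher shPAX8-1 to shPAX8-2 ratio in OS-LM1, and HBEGF a lower one (-0.95 ± 0.15, adjusted p = 0.00027). Those are 4 and 1 of 8 members, against 10.8% higher and 12.0% lower over all genes. PAX8 itself also had a higher ratio in OS-LM1, at 1.16 ± 0.23 (adjusted p = 0.0015), the direction of those 4 members and opposite to HBEGF. Its part in the members' differences was not tested. Over all genes the interaction values tended to be higher at higher GC content (Spearman r = 0.40). The EGFR and ERBB3 interactions missed the threshold in 11 and 10 of the 16 fits without 1 library, with adjusted p up to 0.098 and 0.095. The AREG interaction could not be estimated, since OS-LM1 held no count, and EREG (-1.08 ± 0.75, adjusted p = 0.32) and ERRFI1 (-0.01 ± 0.14, adjusted p = 0.98) did not pass.

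The lines themselves differed in 7 of 8 members tested in the control libraries, 3 higher and 4 lower in OS-LM1, where 35.4% of all genes were higher and 35.1% lower. HBEGF was 4.25-fold higher (2.09 ± 0.12, adjusted p = 4.1e-11), and EGFR (0.31 ± 0.06, adjusted p = 0.00032) and ERBB2 (0.33 ± 0.09, adjusted p = 0.0047) were slightly higher. TGFA was 2.11-fold lower (-1.08 ± 0.07, adjusted p = 6e-10) and ERRFI1 1.97-fold lower (-0.98 ± 0.06, adjusted p = 3.5e-10). EREG was 586-fold lower (-9.20 ± 0.14, adjusted p = 4.5e-18) on 9 to 12 counts in each OS-LM1 control, and AREG is given by its bound above. Among the hairpin libraries 3 members were higher and 3 lower in OS-LM1, against 41.6% and 41.3% of all genes. There EGFR was 2.75-fold higher (1.46 ± 0.08, adjusted p = 1.6e-12), ERBB2 1.84-fold higher (0.88 ± 0.12, adjusted p = 1.5e-06) and HBEGF 7.41-fold higher (2.89 ± 0.08, adjusted p = 6.3e-17), while ERRFI1 was 7.04-fold lower (-2.81 ± 0.07, adjusted p = 2.3e-17). TGFA, averaged over the hairpins, was at 0.07 ± 0.06 (adjusted p = 0.26), and at -0.17 (adjusted p = 0.0082) with the GC trend removed. That average joins opposite differences. With shPAX8-1 TGFA was higher in OS-LM1 (290–322 against 189–203 CPM), and with shPAX8-2 it was lower there (391–429 against 550–606 CPM). The interaction of line and depletion over all 24 libraries was higher for 4 of 8 members (EGFR, ERBB2, TGFA and HBEGF) and lower for ERRFI1, against 29.9% and 28.8% of all genes. The ERBB2 value was 0.54 ± 0.18 (adjusted p = 0.013).

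Downstream of the receptors, genes that ERK signalling is known to induce, most of them feedback inhibitors, were counted as a list. In each comparison with sgNTC18, 34.2% to 35.8% of all genes tested were higher and 34.1% to 37.5% lower, the background for this list and the next ones. Of 15 such genes, 14 were tested in 786-M1A: 10 were higher and 2 lower with shPAX8-1 (median log2 fold change 1.00, against 0.02 over all genes), and 8 higher and 1 lower with shPAX8-2 (median 0.61, against 0.01). In OS-LM1 all 15 were tested, with 13 higher and 1 lower for shPAX8-1 (median 1.78, against -0.03) and 13 higher and none lower for shPAX8-2 (median 1.29, against -0.02). SPRY4, an inhibitor of receptor tyrosine kinase signalling, rose by 3.12 ± 0.12 (adjusted p = 2.5e-14) and 3.39 ± 0.11 (adjusted p = 6.1e-13) in OS-LM1. DUSP6, a phosphatase of ERK, rose in 786-M1A by 1.88 ± 0.16 (adjusted p = 1.9e-06) and 1.36 ± 0.17 (adjusted p = 2e-06). EGR1, an immediate early transcription factor, fell in 786-M1A with shPAX8-1 by 1.65 ± 0.29 (adjusted p = 0.00037), and its depletion effect was 3.34 ± 0.35 higher in OS-LM1 (adjusted p = 6.8e-09). IER3, another early gene, also differed between the lines, by 2.88 ± 0.13 (adjusted p = 7.7e-16). ETV4 fell in 786-M1A with both hairpins (-1.26 ± 0.20, adjusted p = 0.00017, and -0.98 ± 0.18, adjusted p = 0.00012).

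**Figure D5:**
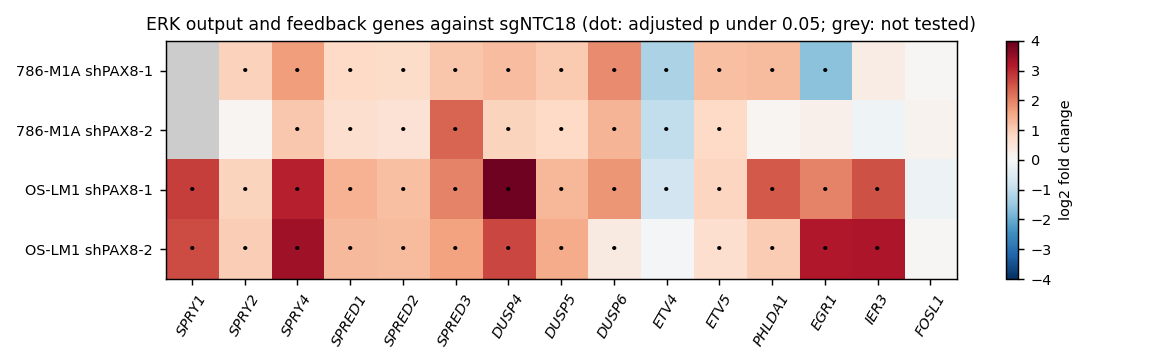
Log2 fold change against sgNTC18 (colour) of 15 ERK output and feedback genes in 4 comparisons; dots mark an adjusted p under 0.05 and grey a gene not tested. SPRY4, the SPRED genes, DUSP4, DUSP5, DUSP6 and ETV5 are called higher in all 4 rows, while EGR1 is lower in 786-M1A with shPAX8-1 and higher in both OS-LM1 rows.

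Genes that take EGFR off the membrane or oppose it were more often higher than lower in 786-M1A and nearly balanced in OS-LM1. Of the 9 tested of 10 in 786-M1A, 8 were higher and 1 lower with shPAX8-1 and 5 and 1 with shPAX8-2, and of the 10 in OS-LM1, 5 were higher and 3 lower, and 5 higher and 4 lower. CBLB, a ubiquitin ligase of activated receptors, rose by 2.67 ± 0.14 (adjusted p = 8.6e-08) and 2.10 ± 0.12 (adjusted p = 5.4e-10) in 786-M1A and by 3.29 ± 0.11 (adjusted p = 3.9e-15) and 2.33 ± 0.11 (adjusted p = 4.7e-11) in OS-LM1. LRIG1, a membrane inhibitor of the family, rose in both lines, by 2.03 ± 0.15 and 1.89 ± 0.12 in 786-M1A (adjusted p = 8.1e-07 and 9.9e-10) and by 1.10 ± 0.19 and 1.18 ± 0.19 in OS-LM1 (adjusted p = 4.2e-05 and 4e-05). HGS, which sorts receptors for degradation, fell in all 4 comparisons, by 0.92 ± 0.21, 0.55 ± 0.12, 0.55 ± 0.11 and 0.33 ± 0.12 (adjusted p = 0.0024, 0.00079, 0.00027 and 0.02).

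Of the 4 shedding genes, 2 were higher in each comparison with sgNTC18, and none was lower except in OS-LM1 with shPAX8-1, where RHBDF2 fell by 0.57 ± 0.10 (adjusted p = 6.5e-05). With 4 genes that count cannot be set apart from the 34.2% to 35.8% of all genes that were higher. ADAM17, a sheddase of several ligands, rose by 0.37 ± 0.13 (adjusted p = 0.024) and 0.80 ± 0.10 (adjusted p = 2.9e-06) in 786-M1A and by 0.61 ± 0.09 (adjusted p = 7.9e-06) and 1.07 ± 0.09 (adjusted p = 4.3e-08) in OS-LM1. ADAM10 rose as well, by 0.40 to 0.72. Of 17 adaptors and effectors, 7 were higher and 5 lower, 7 and 6, 11 and 5, and 10 and 4 in the same order of comparisons, in 786-M1A near the background of all genes (34.9% and 34.1%, 34.7% and 34.5%). GAB1, a docking adaptor of EGFR, rose by 1.63 ± 0.15 in 786-M1A with shPAX8-2 (adjusted p = 9e-08) and by 2.37 ± 0.18 and 2.85 ± 0.19 in OS-LM1 (adjusted p = 7.9e-10 and 1.8e-09). With shPAX8-1 in 786-M1A it was also higher, at 7.35–9.17 CPM against 2.93–4.22 in the controls. HRAS, a small GTPase, fell in all 4 comparisons, by 2.25 ± 0.16, 2.01 ± 0.14, 1.84 ± 0.10 and 1.49 ± 0.14 (adjusted p = 6.3e-07, 3.3e-09, 4.5e-12 and 9.9e-08). Of 7 relatives of the members, 2 were tested in 786-M1A and 5 in OS-LM1. EGF, the founding ligand, rose in OS-LM1 by 0.84 ± 0.12 (adjusted p = 4.4e-06) and 1.36 ± 0.12 (adjusted p = 3.9e-08), and NRG1, a ligand of ERBB3 and ERBB4, exceeded its shPAX8-2 level in the shPAX8-1 libraries of both lines (0.55 ± 0.12, adjusted p = 0.0054, and 0.75 ± 0.10, adjusted p = 6.1e-05).

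Over the 24 libraries, the genes most like TGFA in log2 CPM among 15664 compared were MRFAP1 (Pearson r = 0.948), SH3GLB2 (0.944), NECAP2 (0.938), AP4M1 (0.937) and CMTR1 (0.933). SH3GLB2, for example, had group means of 69.9, 11.3 and 28.5 CPM in 786-M1A (sgNTC18, shPAX8-1, shPAX8-2) and 35.0, 17.2 and 25.5 in OS-LM1, in each line the order TGFA follows, though TGFA was higher in 786-M1A with shPAX8-2 than in the OS-LM1 controls and SH3GLB2 lower. Those most like EGFR were LRCH3 (0.983), SLC47A1 (0.977), PLSCR4 (0.977), RPS6KA2 (0.974) and RNF111 (0.974). RPS6KA2 had group means of 9.73, 13.5 and 16.3 CPM in 786-M1A and 13.8, 43.7 and 39.9 in OS-LM1. The 24 points share 6 groups, 2 lines and the depth and base composition of their libraries, so these correlations describe the pattern only.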

How the data were processed

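Poly(A)-selected, stranded libraries were made with a KAPA kit per the labels (the study's methods name another kit) from 24 samples, 4 for each of 6 groups. The authors aligned reads to hg38 (GRCh38) with Bowtie2 and RSEM, per the submitters' processing notes. The RSEM version and annotation release are not given in the sources used here. The deposited files hold expected counts, which are estimated counts split over shared reads and not normalized, with TPM and FPKM values that the authors' RSEM run made per transcript length. FPKM was not used. Library totals ranged from 11634419 to 52059375, and no replicate pair agreed within counting noise (chi-square per gene 3.73 to 89.5).

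Expected counts were rounded and compared in R 4.3.3 with edgeR 4.0.16 (filterByExpr, TMM, robust quasi-likelihood test, Benjamini-Hochberg adjustment over all genes tested, calls at adjusted p under 0.05), fitting only the groups compared. The script was tested on simulated data. CPM use TMM-scaled library sizes, and log2 CPM a prior count of 2. Of the 9 members, BTC passed the filter in no comparison, and AREG and EREG passed in none within OS-LM1, so counts over members tested omit them. A group at 0 was bounded by 3 counts summed over its libraries. Exact permutation tests used scipy 1.17.1. Alternatives were DESeq2 1.42.0, its size factors, no filter, all 24 libraries in one fit, a GC trend removed, a replicate block, a fold limit, TPM, and leaving out libraries.

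Members, lists and tests were chosen with earlier results of these data known. The text names the 9 members, PAX8, up to 2 rising and 2 falling called genes per list and comparison with a log2 CPM of at least 1, and the 5 genes most like TGFA and EGFR. ERBB4's levels, some VEGFA values, and SH3GLB2 and RPS6KA2 as examples were picked after their values were seen. RefSeq names matched 26137 of 26475 genes, including the 9 members, and 8 members had a RefSeq window at their start. ERBB3 had none.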

Additional observations from a re-analysis of the deposited data

Results flagged for a closer look

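In 49 sets of 4 replicates no member had a library that stood apart from the other 3 by Dixon's 95% limit, where chance would give about 2.45. The flagged results are all tests of a difference between the lines. The shPAX8-1 against shPAX8-2 difference, in log2 units OS-LM1 minus 786-M1A, was 0.45 for EGFR, 0.87 for ERBB2, 1.14 for ERBB3, 1.11 for TGFA and -0.95 for HBEGF. The hairpin against sgNTC18 difference, on the same scale, was 1.15 for EGFR, 0.54 for ERBB2, 1.15 for TGFA, 0.80 for HBEGF and -1.84 for ERRFI1. ERRFI1 was the member whose hairpin libraries lay on opposite sides of the controls in the lines.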

How the results depend on the processing

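Replicate numbers were not taken to pair the samples, since in no comparison did every same-numbered pair correlate over 0.1: same-numbered deviations correlated from -0.319 to 0.271, and at most 2 of 4 samples in any comparison correlated best with their own number. Between hairpins in 786-M1A 3 of 4 pairs did, and a replicate block raised the genes called from 5772 to 7266. With the block the counts ranged from 2418 (hairpins in OS-LM1, 3586 without) to 12430 (lines, shPAX8 libraries, 12525 without). Among the members the calls lost with it were ERBB2 (-0.43, adjusted p = 0.087) and ERBB3 (0.90, adjusted p = 0.059) between hairpins in OS-LM1, and the EGFR and ERBB3 interactions of line and construct (0.44, adjusted p = 0.066, and 1.13, adjusted p = 0.071), the latter 2 also lost without the filter (adjusted p = 0.057 and 0.06). It turned ERBB3 between the lines in shPAX8 libraries to 0.0206. With the GC trend removed, alone and with the block, values turned for PAX8 between hairpins in OS-LM1 (0.0917 and 0.0823), AREG with shPAX8-1 in 786-M1A (-0.0773 and -0.0976), ERRFI1 in the interaction of line and construct (0.16 and 0.16), and, between the lines in shPAX8 libraries, ERBB3 (0.0498 and 0.0727) and TGFA (-0.17 and -0.17). AREG was also -0.00527 with replicates 1 and 2 of 786-M1A shPAX8-1 only. In 786-M1A the genes called between hairpins went from 5772 to 3400 with those replicates and to 8886 with replicates 3 and 4. In OS-LM1 a log2 limit of 0.58 left 1838 of 3586. That limit ended 13 calls: against sgNTC18, EGFR with shPAX8-1 and ERBB2 with shPAX8-2 in 786-M1A, and ERRFI1 with shPAX8-1 and ERBB2 with shPAX8-2 in OS-LM1; between hairpins, ERRFI1 in both lines and TGFA and ERBB2 in OS-LM1; between the control lines, EGFR, ERBB2 and PAX8; and the interactions of EGFR with construct and ERBB2 with depletion. Without 1 library each, values that turned ranged from -0.0821 to 0.19 for AREG with shPAX8-1 in 786-M1A, from -0.10 to 0.10 for PAX8 between hairpins in OS-LM1, from -0.11 to 0.0936 for ERBB3 between the lines in shPAX8 libraries and from -0.0909 to 0.0341 for ERRFI1 in the interaction of line and construct. The cause of these shifts was not tested. No called member turned under any alternative run. Low counts limit ERBB3, BTC and, in OS-LM1, EREG.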
